A study of Mus musculus with 4 samples.

Results

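The 10 genes described here act in 3 connected ways in which a cell can be made to die. They are the receptors Fas and Tnfrsf10b and the ligand Tnfsf10 of the extrinsic pathway, the protease Casp8 that all 3 ways share, the pyroptosis genes Casp1, Casp4 and Gsdmd, and the necroptosis genes Zbp1, Ripk3 and Mlkl. They were chosen by symbol, with earlier results of these data known. Matched to NCBI gene IDs, all 10 were found among the 27179 genes of the table. Of these, 9 had enough counts to be tested, and Gsdmd did not.

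The RNA came from MC38, a mouse colon cancer cell line of wild-type genotype. Control cells and cells given IFN-γ, a cytokine that acts through JAK kinases, were each kept under normoxic or hypoxic conditions, at 20% or 1.5% oxygen. The study's methods give 5 ng/mL IFN-γ for 24 h for most of its experiments. Each of the 4 conditions was 1 biological sample and 1 library, so no condition had a replicate, and the cells are 1 line in culture without immune cells.

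In the extrinsic pathway, a ligand such as FAS ligand or TRAIL binds a death receptor on the cell surface, and the receptor gathers the adaptor FADD and caspase-8, which starts apoptosis. In pyroptosis, caspase-1 is activated in inflammasomes and caspase-11, the product of mouse Casp4, binds bacterial lipopolysaccharide, and both cleave gasdermin D, whose fragment opens pores in the plasma membrane. In necroptosis, ZBP1 or RIPK1 engages RIPK3, which phosphorylates MLKL, and MLKL then breaks the membrane. Caspase-8 holds this last pathway back.

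IFN-γ is known to act on promoters through GAS elements and through IRF-bound elements, and hypoxia acts through elements that bind HIF. Of the 10 genes, 7 had a promoter in the RefSeq table for GRCm38.p6, running from 250 bases before to 50 bases after the transcription start, and Casp4 had a pair of overlapping starts. Both strands were searched for the GAS motif TTCNNNGAA, for the ISRE as GAAA and GAAA around 2 free bases, for the IRF core AANNGAAA, which lies within every such ISRE, and for the hypoxia response element core ACGTG or GCGTG. The IRF core was added after the sequences had been seen. The promoters of 3 genes that IFN-γ raised (Casp1, Casp4 and Tnfsf10), of Mlkl, the most abundant of the 10, and of Fas, the holder of the GAS match, are printed 5′ to 3′ with the matched bases in capitals.
Casp1, chr9:5298267-5298566, plus strand: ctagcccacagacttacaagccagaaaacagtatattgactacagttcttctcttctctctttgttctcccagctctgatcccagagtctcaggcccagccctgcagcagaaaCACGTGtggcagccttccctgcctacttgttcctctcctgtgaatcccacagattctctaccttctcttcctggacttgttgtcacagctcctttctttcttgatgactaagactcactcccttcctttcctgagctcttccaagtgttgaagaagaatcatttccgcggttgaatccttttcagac
Casp4, chr9:5308599-5308898, plus strand: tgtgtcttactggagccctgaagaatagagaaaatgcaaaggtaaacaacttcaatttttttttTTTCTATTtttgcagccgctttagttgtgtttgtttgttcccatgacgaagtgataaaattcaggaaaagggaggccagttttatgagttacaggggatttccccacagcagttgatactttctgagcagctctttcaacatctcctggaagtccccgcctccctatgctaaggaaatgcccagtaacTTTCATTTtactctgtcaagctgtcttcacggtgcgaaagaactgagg
Tnfsf10, chr3:27316827-27317126, plus strand: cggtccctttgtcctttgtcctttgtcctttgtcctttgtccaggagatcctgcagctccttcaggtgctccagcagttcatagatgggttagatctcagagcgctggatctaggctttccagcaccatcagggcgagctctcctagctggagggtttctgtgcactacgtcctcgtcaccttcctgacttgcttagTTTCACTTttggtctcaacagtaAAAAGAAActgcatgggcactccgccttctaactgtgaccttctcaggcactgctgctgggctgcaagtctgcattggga
Mlkl, chr8:111338156-111338455, minus strand: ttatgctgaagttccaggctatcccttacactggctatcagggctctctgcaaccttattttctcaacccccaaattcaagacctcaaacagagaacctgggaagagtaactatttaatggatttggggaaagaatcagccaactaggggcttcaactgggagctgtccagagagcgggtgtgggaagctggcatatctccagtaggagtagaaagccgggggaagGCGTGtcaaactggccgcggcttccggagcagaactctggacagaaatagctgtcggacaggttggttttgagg
Fas, chr19:34290409-34290708, plus strand: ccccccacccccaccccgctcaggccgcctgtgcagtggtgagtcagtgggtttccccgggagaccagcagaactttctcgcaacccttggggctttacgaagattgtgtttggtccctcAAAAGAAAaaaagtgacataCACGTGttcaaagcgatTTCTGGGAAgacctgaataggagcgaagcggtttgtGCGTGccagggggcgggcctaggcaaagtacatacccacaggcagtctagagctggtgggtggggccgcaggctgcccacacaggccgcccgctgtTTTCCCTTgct

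No searched motif was found in all 4 searched promoters of genes that IFN-γ raised (Casp1, Casp4, Mlkl and Tnfsf10). For Zbp1, which IFN-γ also raised, and for Gsdmd and Tnfrsf10b no promoter sequence was available, so they were not searched. The GAS motif, found in 8.30% of the 32851 promoters in the table, was present in the Fas promoter from base -93 to -85 before the start and in no other of the 7. The ISRE, found in 3.44% of promoters, was in 0 of the 7. IRF cores, found in 23.9% of promoters, were in 4 of the 7: Casp4, Casp8, Fas and Tnfsf10. In Tnfsf10 they began at bases -53 and -30. Hypoxia response element cores, found in 43.8% of promoters, were in Casp1, Fas, Mlkl and Ripk3. In Casp1, Fas and Ripk3 a palindrome gave 2 overlapping matches, 1 on each strand. A match shows only that these letters lie in this window.

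**Figure D1:**
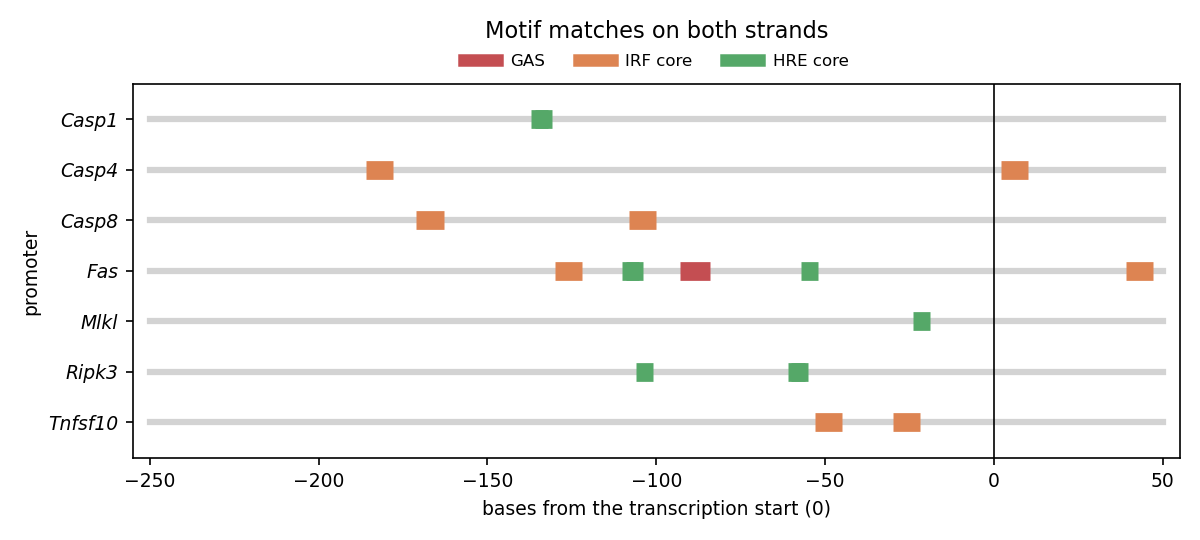
Positions of motif matches in the promoters of 7 of the 10 genes, with distance in bases from the transcription start on the x axis and 1 line per promoter (the first of the Casp4 starts). Blocks mark GAS, IRF core and hypoxia response element (HRE) core matches on either strand, and the GAS match lies in Fas alone.

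The libraries were alike in depth, with 34302971 to 34537939 counts, and normalization factors lay between 0.993 and 1.01. At this depth 3 counts, taken as the floor of detection, correspond to 0.0869 to 0.0875 CPM, the counts scaled to library size. The genes that check the labels moved with them. Irf1, a direct IFN-γ target, was counted 3770 and 4422 times in the controls and 20118 and 23759 times with IFN-γ, and Car9, a HIF target, had 422 and 324 counts in normoxia and 1733 and 1536 in hypoxia. Vegfa, another HIF target, went from 3104 and 2792 counts in normoxia to 4975 and 4828 in hypoxia. Epithelial markers were nearly absent from these cells labelled as colon cancer, with Epcam, Cdh1 and Krt18 at 0 to 2 counts, Krt19 at 0 to 18 and Krt8 at 48 to 90, against 74838 to 81307 counts of Vim, the mesenchymal filament gene. Of 7 leukocyte markers, 4 were at or under 3 counts in every library, Adgre1 and Itgam among them at 0, and their summed counts ran from 89 to 107, mostly of Lyz2, which shares 32.8% of its 31-base words with other genes. Endothelial markers summed to 26 to 50 counts and fibroblast markers, mostly Pdgfra, to 1253 to 1528. None of the 3 sums was higher in both IFN-γ libraries than in both controls. The fibroblast sum was lower in both IFN-γ libraries (1343 and 1253) than in both controls (1441 and 1528), and the other sums overlapped. In such bulk libraries, more cells that use a gene and more RNA per cell cannot be told apart.

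Between genes, levels were compared as TMM-normalized CPM per kilobase of exon. Mlkl, the executioner of necroptosis, was highest in all 4 libraries, at 53.3 and 61.9 in the normoxic and hypoxic control and 94.2 and 95.1 with IFN-γ. Casp8 came next, between 27.7 and 31.3. In the controls Ripk3 (15.0 and 18.1) and Tnfrsf10b (13.5 and 11.6) followed, then Casp1 (5.63 and 6.30) and Casp4 (4.32 and 4.66), with Zbp1 (0.982 and 1.30), Fas (0.476 and 0.379) and Tnfsf10 (0.263 and 0.275) far below. With IFN-γ, Zbp1 came directly after Casp8 at 20.9 and 26.6, followed by Casp1 at 16.9 and 17.1, ahead of Ripk3 at 14.2 and 16.1. Gsdmd was last in every library. Without replicates, neighbours as close as Casp1 and Ripk3 with IFN-γ, or Ripk3 and Tnfrsf10b in the normoxic control, cannot be ordered. The order also depends on the exon lengths, and the annotation behind the counts is not stated. Before division by length, Tnfrsf10b (73.4 CPM) lay above Ripk3 (34.5 CPM) in the normoxic control. Zbp1 (93.8 CPM) lay above Casp8 (87.3 CPM) in the hypoxic IFN-γ library. Mlkl was highest and Gsdmd last by either measure.

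**Figure D2:**
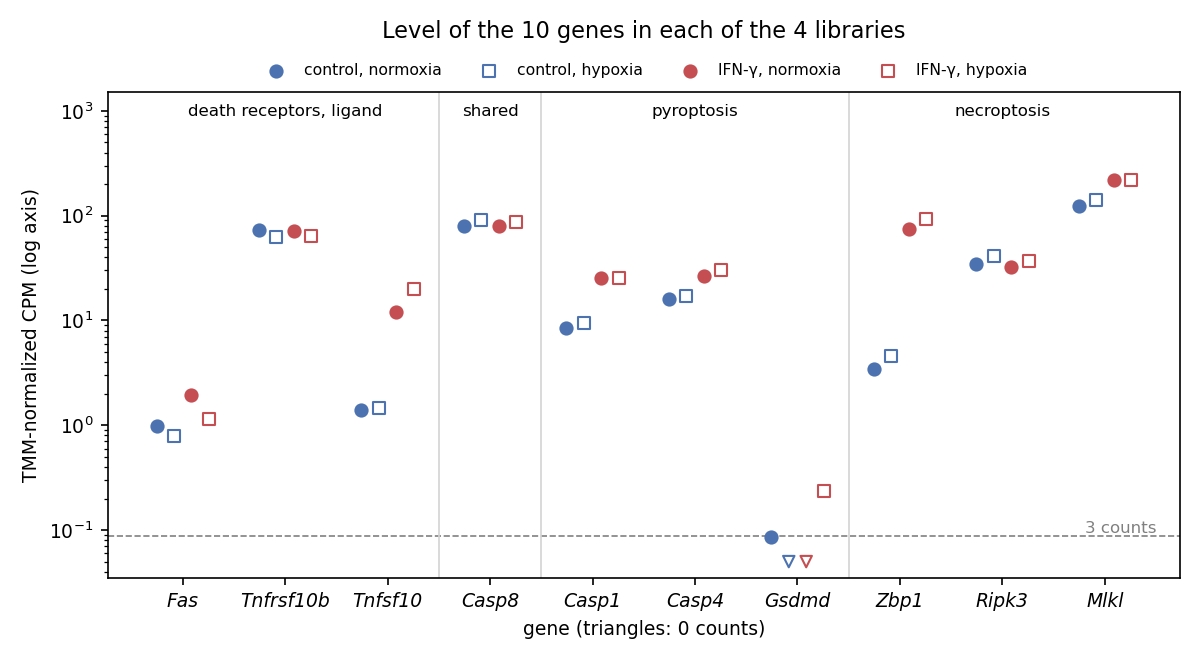
TMM-normalized CPM of each of the 10 genes (x axis) on a log axis, 1 point per library; filled circles are normoxic, open squares hypoxic, blue control and red IFN-γ. In Zbp1 and Tnfsf10 the IFN-γ points lie far above the control points, in Ripk3, Casp8 and Tnfrsf10b they overlap, and Gsdmd lies near the dashed line at 3 counts, with triangles for libraries at 0.

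An additive model of the 4 libraries, with a term for IFN-γ and a term for hypoxia, was fitted to each gene and tested by edgeR's quasi-likelihood method, with Benjamini-Hochberg adjustment over all 13580 genes tested. The spread in it is the gap between the IFN-γ changes of the normoxic and hypoxic pairs, and edgeR pooled it between genes with none left specific to a gene. Its common value over all genes was a coefficient of variation of 4.71%, but the standard errors do not rest on that value alone. The spread mixes differences between cultures with true interaction, so the adjusted p-values do not replace replicates. Changes in a single pair of libraries carry 95% intervals from counting error alone. IFN-γ raised 5 of the 9 tested genes (Zbp1, Tnfsf10, Casp1, Casp4 and Mlkl), where 4.76% of all genes tested were raised. It lowered 0 of the 9, where 1.10% of all genes were lowered. The count was also 0 at an unadjusted p under 0.05 and by DESeq2, which called 16 of all 13580 genes lowered. Hypoxia raised 3 of the 9 (Tnfsf10, Zbp1 and Ripk3), where 8.21% of all genes were raised. DESeq2 called 0 of these, and only 360 of all 13580 genes raised. Hypoxia lowered 0 of the 9, against 6.83% of all genes. DESeq2 also called 0, and 203 of all 13580 genes lowered. For 1 gene, Tnfrsf10b, the fall with hypoxia had an unadjusted p under 0.05 by edgeR. The share of all genes at an unadjusted p under 0.05 is not given here. The median fitted log2 change of the 9 was 0.78 with IFN-γ and 0.15 with hypoxia, beside -0.01 and 0.00 over all genes tested. Because the genes were chosen with earlier results of these data known, these shares and medians only describe the choice.

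**Figure D3:**
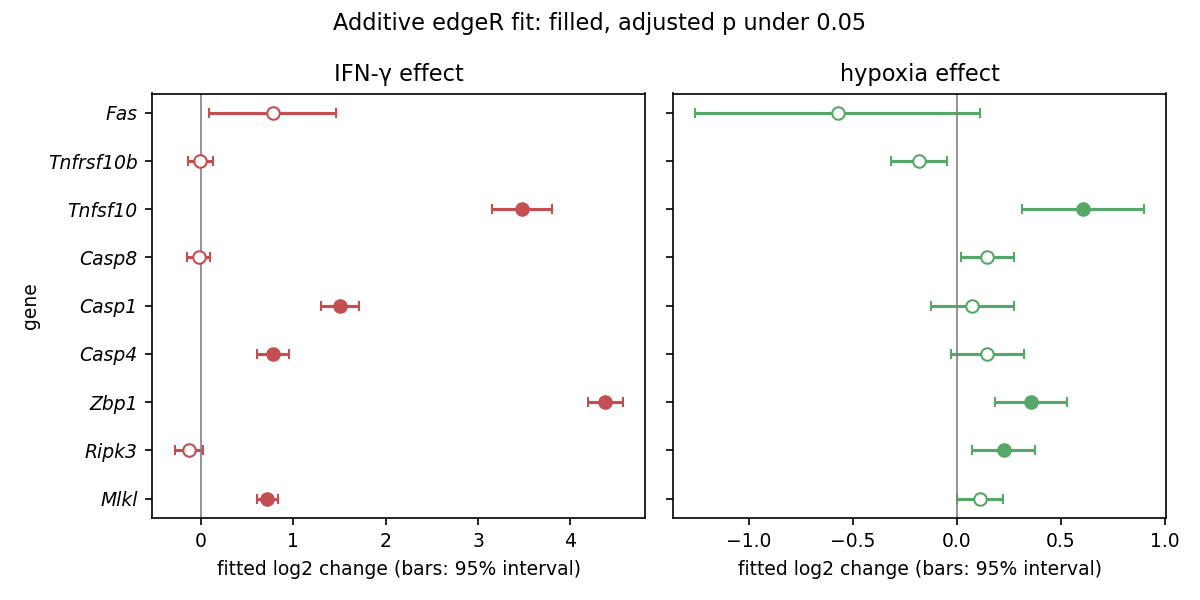
Fitted log2 changes of the 9 tested genes with IFN-γ (left) and hypoxia (right), on different x scales, with 95% intervals from the standard error of the additive edgeR fit. Filled points have an adjusted p under 0.05: 5 genes for IFN-γ, led by Zbp1 at 4.38 and Tnfsf10 at 3.48, and 3 for hypoxia, none above 0.61.

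Among the genes of the extrinsic pathway, IFN-γ raised the ligand and the fit called neither receptor. Gene spans are given on GRCm38.p6 (mm10), from RefSeq, with strands from GENCODE M21. Tnfsf10 (gene 22035, chr3:27317077-27339665, plus strand), which encodes TRAIL, had 48 counts in the normoxic and 50 in the hypoxic control and 410 and 689 with IFN-γ. Both IFN-γ libraries were far above both controls, and the hypoxic one was the higher of them. The fitted log2 change with IFN-γ was 3.48 (SE 0.163), an 11.1-fold rise with an adjusted p of 2.19e-96 by edgeR and at most 0.00150 over the 7 alternative fits. The rise was 8.55-fold in the normoxic pair (log2 3.10, 95% interval 2.67 to 3.57) and 13.8-fold in the hypoxic pair (log2 3.78, 95% interval 3.38 to 4.24).

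Hypoxia also raised Tnfsf10 in the additive fit, by 0.61 on the log2 scale (SE 0.150, adjusted p = 0.000923 by edgeR). The log2 change with hypoxia was 0.06 (95% interval -0.54 to 0.66) in the control libraries and 0.75 (95% interval 0.57 to 0.93) with IFN-γ, a difference that was not tested. The call was made in 4 of the 7 alternative fits, and their adjusted p by edgeR or DESeq2 ran from 0.00865 to nearly 1. With both stimuli the level was 14.4-fold that of the normoxic control (log2 3.85, 95% interval 3.44 to 4.31).

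Tnfrsf10b (gene 21933, chr14:69767472-69784411, plus strand) encodes DR5, the death receptor that binds TRAIL in mice. Its counts were 2541 in the normoxic and 2182 in the hypoxic control, and 2444 and 2213 with IFN-γ. The normoxic libraries were the higher ones, and control and IFN-γ libraries overlapped. Its log2 change with IFN-γ was -0.00475 (95% interval -0.14 to 0.13, adjusted p = 0.994 by edgeR). With hypoxia it was -0.18 (95% interval -0.31 to -0.05), and the adjusted p of 0.0545 by edgeR missed the threshold. In the pairs the log2 change with hypoxia was -0.22 (95% interval -0.30 to -0.13) in the control and -0.14 (95% interval -0.23 to -0.06) with IFN-γ. Of the 31-base words of Tnfrsf10b, 10.8% also occur in other genes.

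Fas (gene 14102, chr19:34290647-34327775, plus strand), the receptor of FAS ligand, was counted 34 times in the normoxic and 27 times in the hypoxic control, and 66 and 39 times with IFN-γ. Both IFN-γ libraries lay above both controls, but the counts were low and the fitted log2 change of 0.78 with IFN-γ (SE 0.349, 95% interval 0.09 to 1.46) had an adjusted p of 0.247 by edgeR. The interval of the normoxic pair, 0.35 to 1.61 around 0.96, lay above 0, and that of the hypoxic pair, -0.20 to 1.31 around 0.54, included it. With hypoxia the fitted log2 change was -0.57 (SE 0.349, adjusted p = 0.297 by edgeR). The hypoxic library was the lower of the 2 with IFN-γ, at a log2 change of -0.75 (95% interval -1.37 to -0.17). The span of Fas holds the small annotated RNA Gm27818 on the same strand.

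Casp8 (gene 12370, chr1:58795233-58847503, plus strand) encodes the protease that the death receptors activate and that restrains necroptosis. It had 2771 counts in the normoxic and 3131 in the hypoxic control, and 2761 and 2989 with IFN-γ. The hypoxic libraries were the higher ones, and IFN-γ and control libraries overlapped. Its log2 change with IFN-γ was -0.02 (95% interval -0.15 to 0.10, adjusted p = 0.957 by edgeR). With hypoxia it was 0.15 (95% interval 0.02 to 0.27), with an adjusted p of 0.110 by edgeR, and both single pairs, at 0.18 and 0.12, had counting intervals above 0. Other genes share 8.36% of its words, and the unclassified transcript Gm37760 overlaps it on the same strand.

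Both inflammatory caspases rose with IFN-γ. Casp1 and Casp4 are neighbours on chromosome 9 on the same strand, with 1567 bases between the end of Casp1 and the start of Casp4. Casp1 (gene 12362, chr9:5298517-5307281), which encodes the inflammasome protease that also matures IL-1β and IL-18, had 292 counts in the normoxic and 326 in the hypoxic control, and 865 and 875 with IFN-γ. The groups were far apart and oxygen made little difference within either. IFN-γ raised Casp1 2.84-fold (log2 1.51, SE 0.103, adjusted p = 4.51e-46 by edgeR), and all 7 alternative fits made the call, with an adjusted p of at most 0.00111. The log2 change was 1.58 (95% interval 1.39 to 1.78) in the normoxic and 1.44 (95% interval 1.25 to 1.63) in the hypoxic pair. With hypoxia it was 0.08 (95% interval -0.12 to 0.27, adjusted p = 0.698 by edgeR).

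Casp4 (gene 12363, chr9:5308849-5336791), which encodes the lipopolysaccharide-binding caspase-11, had 555 counts in the normoxic and 597 in the hypoxic control, and 919 and 1042 with IFN-γ. The libraries again separated by IFN-γ. The rise was 1.72-fold (log2 0.78, SE 0.0894, adjusted p = 2.11e-16 by edgeR), and 6 of the 7 alternative fits called it. With a coefficient of variation preset to 0.2 in edgeR as an assumed spread, the adjusted p was 0.326. The pairs gave 0.74 (95% interval 0.59 to 0.90) in normoxia and 0.82 (95% interval 0.67 to 0.96) in hypoxia. The log2 change with hypoxia, 0.15, had an adjusted p of 0.287 by edgeR. Casp1 shares none of its 31-base words with another gene and Casp4 1.45% of them.

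Gsdmd (gene 69146, chr15:75862144-75867408, plus strand) encodes gasdermin D, the pore-forming substrate of both caspases. It had 3 counts in the normoxic control, 0 in the hypoxic control, 0 in the normoxic IFN-γ library and 8 in the hypoxic IFN-γ library. The first 3 libraries lay at or under the floor, the last at 0.234 CPM, and the gene was too low to be tested. In the normoxic pair no change was detectable at this depth. In the hypoxic pair the 8 counts with IFN-γ against 0 lay beyond counting error, with a lower 95% limit of 0.78 on the log2 scale. Against the floor of 3 counts in the control library the ratio was 2.69-fold. Against the 3 counts of the normoxic control the lower limit was -0.63, so the 8 counts were within counting error there. The IFN-γ change in hypoxia minus the one in normoxia was 6.89 on the log2 scale (95% interval 0.96 to 12.8, counting error only), rests on 2 libraries at 0 and became 2.06 with 5 in place of 0.5 counts added.

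In necroptosis, IFN-γ raised the sensor and the executioner, while the kinase between them was not raised. Zbp1 (gene 58203, chr2:173206612-173218959, minus strand), which encodes a sensor of Z-form nucleic acids, had 120 counts in the normoxic and 159 in the hypoxic control, and 2531 and 3214 with IFN-γ. Every IFN-γ library exceeded every control, and the hypoxic library was the higher one in each pair. The rise with IFN-γ was 20.8-fold (log2 4.38, SE 0.0975), the largest fitted change of the 9 genes. Its adjusted p by edgeR was too small for the software to represent, and at most 6.37e-05 over the alternative fits. The pairs agreed within counting error, at 21.2-fold in normoxia (log2 4.41, 95% interval 4.15 to 4.69) and 20.3-fold in hypoxia (log2 4.35, 95% interval 4.12 to 4.59).

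Hypoxia raised Zbp1 1.28-fold in the additive fit (log2 0.36, SE 0.0887, adjusted p = 0.000922 by edgeR). The log2 change was 0.41 (95% interval 0.06 to 0.76) in the control and 0.35 (95% interval 0.27 to 0.42) in the IFN-γ libraries. The call was made in 4 of the 7 alternative fits, with an adjusted p by edgeR or DESeq2 from 0.00376 to nearly 1. With both stimuli Zbp1 was 27.0-fold above the normoxic control (log2 4.75, 95% interval 4.50 to 5.03).

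Ripk3 (gene 56532, chr14:55784995-55788857, minus strand), the kinase that ZBP1 engages, had 1193 counts in the normoxic and 1434 in the hypoxic control, and 1113 and 1262 with IFN-γ. Control and IFN-γ libraries overlapped, and in each pair the hypoxic library was higher. The log2 change with IFN-γ was -0.13 (95% interval -0.28 to 0.02, adjusted p = 0.502 by edgeR). It was -0.09 (95% interval -0.21 to 0.03) in the normoxic and -0.17 (95% interval -0.28 to -0.06) in the hypoxic pair, the second beyond counting error. Hypoxia raised it 1.17-fold (log2 0.23, SE 0.0776, adjusted p = 0.0288 by edgeR), with 0.27 (95% interval 0.16 to 0.38) in the control and 0.18 (95% interval 0.07 to 0.30) in the IFN-γ pair. The call was made in 3 of the 7 alternative fits, whose adjusted p ran from 0.0394 to nearly 1.

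Mlkl (gene 74568, chr8:111311255-111338479, minus strand), which encodes the membrane-breaking pseudokinase, had 4249 counts in the normoxic and 4927 in the hypoxic control, and 7438 and 7501 with IFN-γ. The IFN-γ libraries nearly coincided and both exceeded the controls. The rise with IFN-γ was 1.65-fold (log2 0.72, SE 0.0576, adjusted p = 1.11e-33 by edgeR). Of the 7 alternative fits 6 called it, and the one with the preset coefficient of variation of 0.2 gave an adjusted p of 0.460. The log2 change with hypoxia was 0.22 (95% interval 0.16 to 0.28) in the control and 0.01 (95% interval -0.03 to 0.06) in the IFN-γ pair, and the fitted value of 0.11 had an adjusted p of 0.188 by edgeR. The pseudogene Gm45712 lies within Mlkl on the opposite strand, and whether the counting used the strand is not stated in the sources used here.

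The IFN-γ changes of most of the 9 genes were close in the normoxic and the hypoxic pair. For the 7 of them that reached 100 counts in each library, the difference (hypoxia minus normoxia) ran from -0.20 to 0.08 on the log2 scale, and 1, Mlkl, lay outside its 95% counting interval at -0.20 (95% interval -0.28 to -0.13). Of all 10443 genes counted as well, 34.5% lay outside theirs, and the central 95% of their differences ran from -0.36 to 0.40, a range that holds all 7. Tnfsf10, with controls below 100 counts, had a difference of 0.69 (95% interval 0.09 to 1.28). Fas, below 100 counts in every library, had a difference of -0.43 (95% interval -1.34 to 0.49). For Zbp1 it was -0.06 (95% interval -0.41 to 0.29) and for Casp1 -0.14 (95% interval -0.41 to 0.12). None of these differences could be tested.

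**Figure D4:**
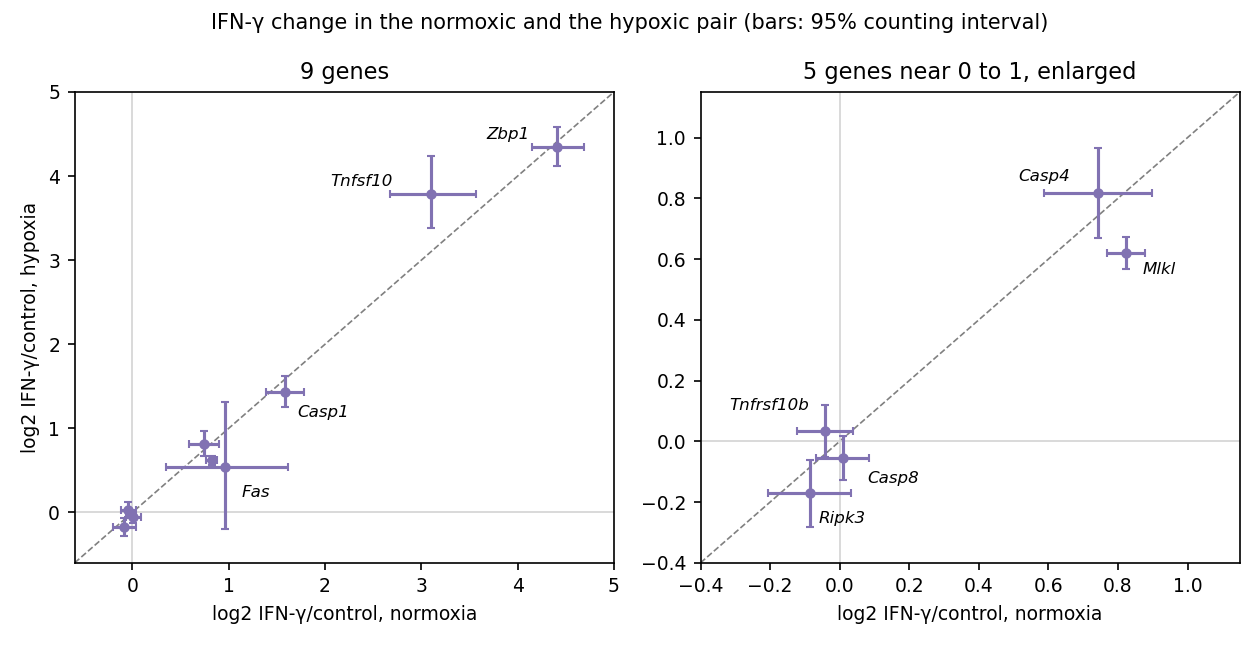
Log2 ratio of IFN-γ to control in normoxia (x axis) against hypoxia (y axis) for the 9 tested genes (left) and enlarged for 5 of them (right), with 95% counting intervals. On the dashed line both changes are equal; Tnfsf10 lies above it and Mlkl below it, and the intervals of Zbp1 and Casp1 reach it.

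The partners of these genes were taken from 3 lists, of the extrinsic pathway, of pyroptosis and inflammasomes, and of necroptosis, which hold 54 other genes reported here. Of the 35 that were tested, IFN-γ raised 10 and lowered 0, beside 4.76% and 1.10% of all genes tested, and hypoxia raised 7 and lowered 3, beside 8.21% and 6.83%. DESeq2 called 5, 0, 2 and 0 of these, where it called 353, 16, 360 and 203 of all 13580 genes. By edgeR, 2 genes, Tradd and Nek7, were lower with IFN-γ at an unadjusted p under 0.05. The share of all genes at that threshold is not given here, so this count cannot be weighed. The median fitted log2 change of the 35 was 0.08 with IFN-γ and 0.07 with hypoxia, beside -0.01 and 0.00 over all genes tested. These lists, too, were chosen with earlier results known, and their shares are descriptive.

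In the extrinsic pathway 16 of 19 other genes were tested, and IFN-γ raised 3 of them. Bid, which links caspase-8 to mitochondria, had 1624 and 1364 counts in the controls and 2164 and 1861 with IFN-γ, a log2 change of 0.44 (SE 0.0729, adjusted p = 4.94e-08 by edgeR). It was called in 5 of the 7 alternative fits. The others were Cflar, the decoy that blocks caspase-8, at 0.35 and the TNF receptor gene Tnfrsf1a at 0.26, each called in 4 of the 7. Hypoxia raised the executioner Casp6 by 0.68, the ubiquitin ligase Birc2 by 0.35 and Cflar by 0.24, and Tnfrsf21 fell by 0.42 and Bid by 0.23. The Casp6 call was made in 6 of the 7 alternative fits and the other 4 in 4 each, with adjusted p by edgeR or DESeq2 up to nearly 1, and DESeq2 called neither of the lowered genes. The adaptor gene Fadd had 403 to 464 counts and a log2 change of 0.11 with IFN-γ (adjusted p = 0.819 by edgeR). The ligands Fasl and Tnf were hardly counted, with at most 1 and 4 counts in any library.

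Of 26 other pyroptosis and inflammasome genes only 10 could be tested, and IFN-γ raised 4 of these. Casp12, which lies beyond Casp4 on the same strand (chr9:5345442-5373034), had 341 and 451 counts in the controls and 1086 and 1210 with IFN-γ. Its log2 change of 1.56 (SE 0.0927, adjusted p = 2.80e-60 by edgeR) was close to that of Casp1 and held in all 7 alternative fits. Hypoxia raised it by 0.26 in the additive fit (adjusted p = 0.0364 by edgeR), a call that was made in 0 of the 7 alternative fits. The flagellin sensor genes Naip5, Naip2 and Naip6 rose by 0.998, 0.61 and 0.59 with IFN-γ, but share 32.7% to 52.6% of their words with each other or other genes and are uncertain. The Naip5 call was made in 1 of the 7 alternative fits, and those of Naip2 and Naip6 in 4. No gene of this list was lowered by IFN-γ in edgeR or DESeq2, and Nek7 alone was lower at an unadjusted p under 0.05. The 16 untested genes had at most 14 counts in any library. Among them were Pycard, the inflammasome adaptor, with 0, 0, 0 and 2 counts, the sensor Nlrp3 with 2 to 8, and the caspase-1 substrates Il1b with 0 to 2 and Il18 with 2 to 7. Gsdme was the gasdermin gene with substantial counts, from 693 to 855, and had log2 changes of -0.12 with IFN-γ and -0.17 with hypoxia, with adjusted p of 0.677 and 0.195 by edgeR.

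All 13 other necroptosis genes were tested, and IFN-γ raised 4. Tlr3, the receptor for double-stranded RNA, had 454 and 576 counts in the controls and 1049 and 1197 with IFN-γ, a log2 change of 1.14 (SE 0.0889, adjusted p = 1.52e-35 by edgeR) that all 7 alternative fits called. Adar, whose interferon-inducible protein edits double-stranded RNA and limits ZBP1 activation, rose by 0.49, and Cflar and the deubiquitinase gene Cyld by 0.35 and 0.34. These were called in 6, 4 and 5 of the 7 alternative fits. Hypoxia raised Tnfaip3, which encodes the deubiquitinase A20, from 371 to 727 counts in the control and from 361 to 712 with IFN-γ, a log2 change of 0.98 (SE 0.104, adjusted p = 8.26e-19 by edgeR, called in 6 of the 7 alternative fits). It also raised Tlr3, Cflar and Cyld by 0.20 to 0.26, and the mitochondrial phosphatase gene Pgam5 fell by 0.20, calls that were made in 3 or 4 of the 7 alternative fits. Ripk1, the kinase partner of Ripk3, had 1436 to 1694 counts and a log2 change of 0.17 with IFN-γ (adjusted p = 0.231 by edgeR). Some genes stand on 2 lists, Cflar among them.

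**Figure D5:**
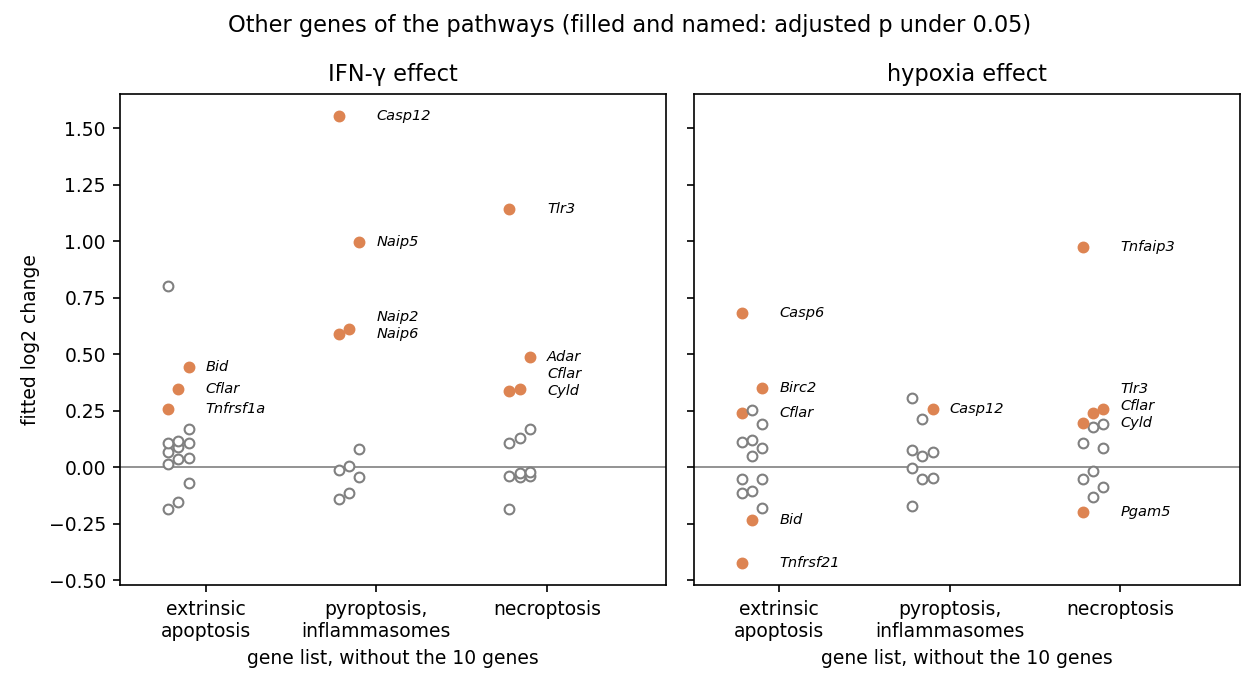
Fitted log2 changes with IFN-γ (left) and hypoxia (right) of the tested genes of the 3 lists, without the 10 genes themselves, from the additive edgeR fit. Filled, named points have an adjusted p under 0.05; Casp12 and Tlr3 lead for IFN-γ and Tnfaip3 and Casp6 for hypoxia, and Cflar appears in 2 lists.

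For each of the 9 genes, the gene with the closest profile over the 4 libraries was sought among 10687 well-counted genes, by the Euclidean distance of centred log2 CPM. The gene closest to Zbp1 was Igtp, an immunity-related GTPase gene, with 598, 768, 11773 and 13826 counts in the normoxic control, hypoxic control, normoxic IFN-γ and hypoxic IFN-γ library (distance 0.155), and with 15.9% of its words in other genes. Casp1 was closest to Psme1, a proteasome activator subunit gene (distance 0.116), Casp4 to Fbxw17 (0.0458) and Mlkl to Nudt13 (0.0542). Tnfsf10 had the most distant nearest gene, Ly6a (0.298), which had only 44 and 40 counts in the controls. Of its words, 31.9% also occur in other genes, most of all in Ly6c1 and Ly6i. Ripk3 was 0.00858 from Rala, Casp8 0.00974 from Anxa1 and Tnfrsf10b 0.0123 from Mgat4b. Fas was closest to a gene without a symbol in the reference table (0.196). With 4 libraries, such likeness describes only these values.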

How the data were processed

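RNA-seq was carried out on poly-A selected, strand-specific libraries of MC38 cells, 1 per condition. The authors aligned reads with HISAT2, and the deposited table holds raw counts per NCBI gene ID. The submitters' processing notes name mm10 and featureCounts, and versions, annotation, strand setting and the treatment of multiply mapped reads are not given in the sources used here. Depth was 34302971 to 34537939 counts per library. Intervals and floors cover counting error only.

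Symbols came from a GRCm38.p6 RefSeq table and matched 25275 of 27179 IDs. Gene spans came from RefSeq as well. Strands, overlapping genes, exon lengths and shared 31-base words came from GENCODE M21. edgeR 4.0.16 in R 4.3.3 fitted an additive quasi-likelihood model with TMM normalization to the 13580 genes that passed filterByExpr (minimum 10 counts), with 1 residual degree of freedom, and a gene was called at an adjusted p under 0.05. Model intervals are 95% normal intervals from the standard error (log2 change over the root of F). Pair ratios had 0.5 counts added, with Clopper-Pearson intervals for pairs and Poisson intervals for differences. The code was tested on simulated data.

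The alternatives were DESeq2 size factors or total counts in edgeR, the DESeq2 1.42.0 Wald test, no filter, at least 10 counts in every library, 2 libraries against 2, a preset coefficient of variation of 0.2 (these 7 are the alternative fits), stricter call rules, single pairs, and 5 counts added. Named genes are the 10, up to 6 called genes per list and stimulus by size of change, fixed partners (Fasl, Tnf, Ripk1, Fadd, Cflar, Gsdme and Pycard), the nearest profile of each tested gene, and Irf1, Car9 and Vegfa. A few genes of the lists are not reported here and are left out of the list counts. Other names were added with their values seen. The 10 genes and the lists were chosen with earlier results of these data known.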

Additional observations from a re-analysis of the deposited data

Results flagged for a closer look

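Among the 9 tested genes, 2 had IFN-γ changes of opposite sign between the normoxic pair and the hypoxic one. For Casp8, the log2 change was 0.01 in normoxia and -0.05 in hypoxia, a difference of -0.0629 (95% counting interval -0.17 to 0.04). For Tnfrsf10b, it was -0.04 in normoxia and 0.03 in hypoxia, a difference of 0.0753 (95% counting interval -0.04 to 0.19). Both intervals include 0, and with 1 library per condition neither difference was tested.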

How the results depend on the processing

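With IFN-γ, 5 of the 10 genes were raised in the main and in 7 of 9 alternative settings, and 3 (Zbp1, Tnfsf10 and Casp1) with a preset coefficient of variation of 0.2 or with a log2 change of at least 1 required in addition. With hypoxia, the 3 raised genes became 0 with 2 libraries against 2, with the DESeq2 Wald test, with the preset coefficient of variation and with the log2 change of at least 1, and 2 to 3 under the other settings. The cause was not tested. Among the fitted log2 changes of the 9 tested genes, 61 of 63 alternative values with IFN-γ and 63 of 63 with hypoxia kept their direction, and 2 and 10 lost the call. Single pairs carry no test, and 16 of 18 with IFN-γ and 18 of 18 with hypoxia kept the direction, the exceptions being Casp8 and Tnfrsf10b. The near-zero IFN-γ change of Tnfrsf10b turned to 0.00512 without a filter and to 0.00206 with at least 10 counts in every library. Over all genes, IFN-γ raised 647 and lowered 149, against 239 and 3 with 2 libraries against 2, 353 and 16 by DESeq2 and 231 and 5 with the preset value. It lowered 71 without a filter, 74 with at least 10 counts in every library and 99 with DESeq2 size factors. Hypoxia raised 1115 and lowered 927, against 150 and 26, 360 and 203, and 66 and 2 under the first 3 of these settings. edgeR's prior degrees of freedom for the spread were infinite in the main setting and finite in the other edgeR quasi-likelihood fits, with medians from 3.52 to 23.2 and each gene called among the 10 had its smallest adjusted p in the main setting. No paired analysis was possible because each condition has 1 library, so that replicate numbers pair no samples. The additive model itself compares IFN-γ with control within each oxygen level. Leaving out a library removes the only sample of a condition, and the single pairs stand in for it. Depth limits Gsdmd, with at most 8 counts, and Fas, with at most 66.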
